A study of Mus musculus with 15 samples.

Results

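Transcripts of 9 enzymes were followed across Gln antagonism and Gln withdrawal in pancreatic ductal adenocarcinoma (PDAC) cells and tumors. They are Phgdh, Psat1 and Psph of serine synthesis, Shmt2, Mthfd2, Mthfd1l and Aldh1l2 of the mitochondrial folate pathway, and Shmt1 and Mthfd1 of its cytosolic arm. The genes were taken by name, 9 of 55291 in the deposited tables. RNA-seq had been performed on HY19636, 1 murine PDAC line. It was isolated from a C57BL/6 mouse with the p53 genotype L/+ and Ptf1a-Cre, a driver active in the pancreatic lineage. In culture, in DMEM with 10% serum, 3 libraries came from cells given 25 µM DON (6-diazo-5-oxo-L-norleucine, a Gln mimic that blocks enzymes using Gln) for 24 h, 3 from cells kept without Gln for 24 h (Gln-free) and 3 from control cells. In vivo, 3 libraries came from orthotopic HY19636 tumors treated with DRP-104, a prodrug of DON, and 3 from tumors of vehicle-treated mice. The hosts were female C57BL/6J mice of 8 to 10 weeks with their own stroma and immune cells. According to the methods, DRP-104 studies used 3 mg per kg daily for 2 cycles of 5 days on and 2 days off, begun 7 days after surgery. No label says whether the libraries of a group came from separate cultures, so p-values measure the spread between these libraries, which may be technical.

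Phgdh, Psat1 and Psph convert a glycolytic intermediate to serine in consecutive steps, and the Psat1 step takes its amino group from Glu, the product of Gln hydrolysis. In mitochondria Shmt2 splits serine into glycine and a one-carbon unit carried on folate, Mthfd2 oxidizes that unit, and Mthfd1l releases it as formate, while Aldh1l2 burns it to CO2 and yields NADPH. In the cytosol Mthfd1 takes up formate for purine and thymidylate synthesis, and Shmt1 interconverts serine and glycine. Gln also gives its amide nitrogen to purine and pyrimidine synthesis, the steps that DON is known to block. ATF4, the effector of the amino acid response, is known to drive several of these genes.

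In GRCm38 coordinates, which the authors' FPKM table uses, Phgdh lies at chr3:98313170-98339990, Psat1 at chr19:15904678-15947337 and Psph at chr5:129765558-129787252. Shmt2 lies at chr10:127517123-127522444, Mthfd2 at chr6:83305691-83317606, Mthfd1l at chr10:3973118-4167081 and Aldh1l2 at chr10:83487450-83534140. Shmt1 lies at chr11:60788104-60811718 and Mthfd1 at chr12:76255232-76319820. Mthfd1 and Mthfd1l are on the plus strand and the other 7 genes on the minus strand. Protein-coding genes of the opposite strand overlap Shmt1 (Smcr8), Shmt2 (Ndufa4l2) and Aldh1l2 (D10Wsu102e), and whether counting used strand is not given in the sources used here. Cct6a, listed as a processed transcript, overlaps Psph, and pseudogenes or other noncoding genes overlap Psat1, Mthfd2, Mthfd1 and Mthfd1l, while Phgdh overlaps no annotated gene. Reads of overlapping genes may be shared between them.

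RefSeq promoter windows (GRCm38.p6, 250 bases before to 50 after the gene start) were given for 8 of the 9 genes, with a second window for Psat1. The 9 windows had a median of 16 CG dinucleotides against 7 over 32851 promoters. They ranged from 8 for Mthfd1l and 11 for Phgdh to 30 for a Psat1 window. The 100 bases before the RefSeq start are printed for Phgdh, Shmt2 and Mthfd1l, the 3 members that were called higher after DON and lower without Gln. For Phgdh and Shmt2 the call without Gln was lost in 5 of 6 fits without 1 library. Capitals mark a match to TGACNNNGC, the antioxidant response element of NRF2 (Nfe2l2), searched on both strands and here read on the opposite strand. The windows are chr3:98339970-98340069 (minus strand), chr10:127522445-127522544 (minus strand) and chr10:3972975-3973074 (plus strand), and the last 21 bases of the first lie in the Phgdh gene by the FPKM table's coordinates.
Phgdh: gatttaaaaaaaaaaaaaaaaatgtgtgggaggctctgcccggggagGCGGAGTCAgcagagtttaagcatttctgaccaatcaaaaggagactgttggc
Shmt2: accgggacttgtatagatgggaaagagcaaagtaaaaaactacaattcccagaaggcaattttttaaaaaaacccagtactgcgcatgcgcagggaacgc
Mthfd1l: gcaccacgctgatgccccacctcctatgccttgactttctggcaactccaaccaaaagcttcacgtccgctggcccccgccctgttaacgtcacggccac
The element was found in 2 of the 9 windows, those of Phgdh, at position -53 from the start, and Psph, at position 4 after it, and in 12.4% of all promoters. The ATF4 element TGATGNAA and the MYC element CACGTG were found in 0 of the 9 windows, and in 3.97% and 7.15% of all promoters. No match means only that these letters are not in these windows.

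The 9 culture libraries held 25.2 to 48.2 M reads and the 6 tumor libraries 16.3 to 20.7 M, as recovered from the normalized values. The deepest, control library 3, gave lower values than the mean of control libraries 1 and 2 for all 9 members, at 0.758 to 0.928 of it on a scale joint to the 9 cultures. The share of all genes that were lower in this library was not counted. Control numbers are those of the table columns and are not tied to single labelled cultures. DRP-104 tumor 3 stood apart in T cell markers, with a summed value of 1255 normalized counts over 6 genes against 36.9 to 80.4 in the other 5 tumors, and each of the 6 genes was highest there. In the cultures the islet markers, the macrophage marker Adgre1 and 3 of 6 fibroblast markers (Dcn, Lum and Col1a2) were at 0. The summed fibroblast markers were 123 to 160 normalized counts after DON and 478 to 646 in the controls of that table, and 1063 to 1110 without Gln and 461 to 610 in the controls of that table. All 6 epithelial markers were present in the cultures, but their summed value was 116931 to 125209 normalized counts after DON and 393347 to 511169 in the controls of the same table, and 158259 to 173641 without Gln and 379354 to 481740 in the controls of that table. The summed macrophage markers were 802 to 847 after DON and 55.8 to 89.9 in the controls, with Adgre1, C1qa and C1qb at 0 after DON, and the acinar markers 238 to 431 and 55.3 to 66.9, with 5 of 9 genes at 0 after DON. The part of these differences in the results was not tested.

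In DON-treated cells 7 of the 9 members were called higher than in control cells and 0 lower, at an adjusted p under 0.05 (limma on log2(value + 1), Benjamini-Hochberg over all genes tested), where 33.3% of 13556 genes were called higher. The 7 were the serine synthesis enzymes and the mitochondrial enzymes, and the rises ran from 1.48-fold (Phgdh) to 13.8-fold (Aldh1l2). Without Gln, 4 members were called higher, against 34.5% of 13390 genes, and 5 lower, against 34.9%. Higher were Psat1, Psph, Mthfd2 and Aldh1l2, and lower were Phgdh, Shmt2, Mthfd1l, Shmt1 and Mthfd1. In the tumors 0 members passed the test. Values below are normalized counts of the 9 cultures on 1 joint scale, and fold changes against control were fitted within each deposited table. Both culture comparisons share the 3 control libraries.

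**Figure D1:**
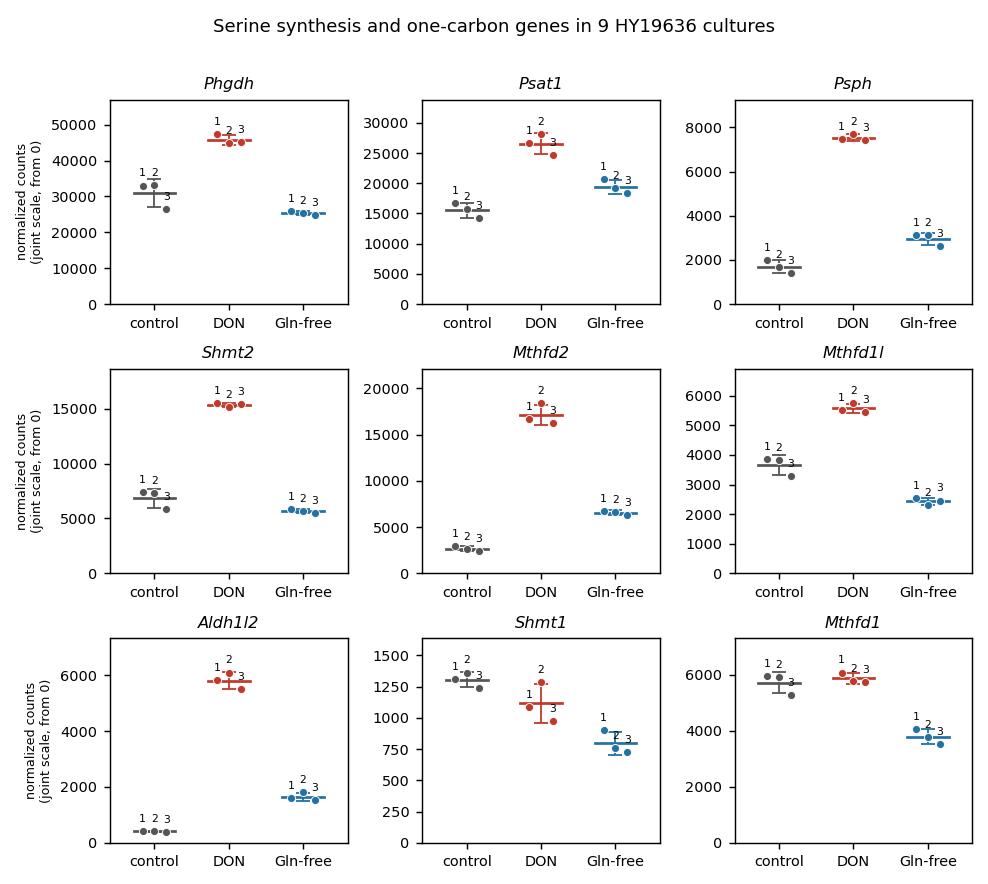
Normalized counts (linear axis from 0, joint culture scale) of the 9 genes in control, DON and Gln-free cells. Points are libraries with their numbers, lines are means and bars are SD (n = 3). For Mthfd2 the DON libraries sit between 16286 and 18388, above the Gln-free libraries at 6288 to 6791, which sit above the controls.

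Among the serine synthesis enzymes, Phgdh, which catalyzes the first step, had 33062, 33312 and 26391 normalized counts in control libraries 1 to 3, 47484, 44787 and 45173 after DON and 25935, 25501 and 24819 without Gln. The DON libraries lay above all controls and the Gln-free libraries below all of them, the latter only just below control library 3. The log2 fold change was 0.57 after DON (standard error 0.11, adjusted p = 0.000425, limma) and -0.25 without Gln (standard error 0.098, adjusted p = 0.0353, limma). The call without Gln was lost in 5 of 6 fits without 1 library (adjusted p 0.0777 to 0.132, limma), the exception being the fit without control library 3, and with no filter on low values (adjusted p = 0.0778, limma). Psat1, the aminotransferase of the next step, had 16716, 15704 and 14205 in the controls, 26627, 28179 and 24725 after DON and 20624, 19218 and 18360 without Gln. It rose under both treatments, with log2 fold changes of 0.76 after DON (adjusted p = 9.17e-06, limma) and 0.34 without Gln (adjusted p = 0.00349, limma). Psph, the phosphatase that releases serine, had 1981, 1686 and 1389 in the controls, 7481, 7707 and 7417 after DON and 3111, 3131 and 2644 without Gln. It was the serine synthesis gene with the largest rises, 4.48-fold after DON (log2 2.16, adjusted p = 1.44e-09, limma) and 1.80-fold without Gln (log2 0.85, adjusted p = 4.42e-05, limma). The groups of Psph and of Psat1 did not overlap. Of all genes tested, 71.9% did not overlap between DON and control, 73.6% between Gln-free and control and 71.7% between DON and Gln-free.

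Among the mitochondrial enzymes, Aldh1l2, the formyltetrahydrofolate dehydrogenase, was lowest in the controls and rose most. It had 425, 431 and 396 normalized counts in the controls, 5817, 6099 and 5511 after DON and 1591, 1805 and 1537 without Gln. The log2 fold change was 3.79 after DON (adjusted p = 2.53e-12, limma) and 2.00 without Gln (adjusted p = 5.67e-09, limma). Mthfd2, the dehydrogenase and cyclohydrolase, had 2937, 2681 and 2400 in the controls, 16637, 18388 and 16286 after DON and 6791, 6580 and 6288 without Gln. It rose 6.37-fold after DON (log2 2.67, adjusted p = 4.62e-11, limma) and by 1.32 on the log2 scale without Gln ( adjusted p = 5.28e-08, limma). For Aldh1l2 and Mthfd2 the lowest treated library was above the highest control. Of all genes tested, 71.9% after DON and 73.6% without Gln were likewise separated from the controls, in 1 direction or the other.

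Shmt2 and Mthfd1l, which stand at the entry and the exit of the mitochondrial pathway, moved in opposite directions under the 2 treatments. Shmt2 had 7375, 7329 and 5832 normalized counts in the controls, 15491, 15134 and 15386 after DON and 5825, 5715 and 5515 without Gln. It rose 2.24-fold after DON (log2 1.16, adjusted p = 2.10e-07, limma) and fell without Gln by 0.24 on the log2 scale (adjusted p = 0.0419, limma). The Gln-free values lay next to control library 3, which they overlap on the scale of the deposited Gln-free table, and the call was lost in 5 of 6 fits without 1 library (log2 -0.26 to -0.18, adjusted p 0.0781 to 0.155, limma). Of those 6 fits, the one without control library 3 kept it. Mthfd1l, which releases formate, had 3867, 3842 and 3277 in the controls, 5505, 5749 and 5463 after DON and 2544, 2300 and 2461 without Gln. Its groups did not overlap, as for 71.9% of genes tested (DON against control), 73.6% (Gln-free against control) and 71.7% (DON against Gln-free). The log2 fold change of Mthfd1l was 0.60 after DON (adjusted p = 5.70e-05, limma) and -0.56 without Gln (adjusted p = 0.000112, limma).

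The cytosolic enzymes were not called higher in either comparison. Shmt1 had 1311, 1362 and 1241 normalized counts in the controls, 1085, 1284 and 978 after DON and 901, 760 and 728 without Gln. DON library 2 reached into the control range, and the log2 fold change after DON was -0.24 (95% interval -0.49 to 0.00088, adjusted p = 0.0717, limma). It was called lower without DON library 2 (log2 -0.35, adjusted p = 0.0212, limma) and without control library 3 (log2 -0.28, adjusted p = 0.0334, limma), which makes 1 member lower after DON. Without Gln Shmt1 fell by 0.69 on the log2 scale (adjusted p = 7.77e-05, limma). Mthfd1, the cytosolic synthetase, had 5962, 5899 and 5278 in the controls, 6072, 5784 and 5727 after DON and 4050, 3780 and 3538 without Gln. Its log2 fold change after DON was 0.03 (95% interval -0.16 to 0.22, adjusted p = 0.780, limma), and under quantile normalization, which moved it to 0.22, it was called higher (adjusted p = 0.0213, limma). Without Gln Mthfd1 fell by 0.57 (adjusted p = 6.50e-05, limma). An exact permutation test of any single gene with 3 against 3 libraries cannot go below p = 0.1, two-sided.

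**Figure D2:**
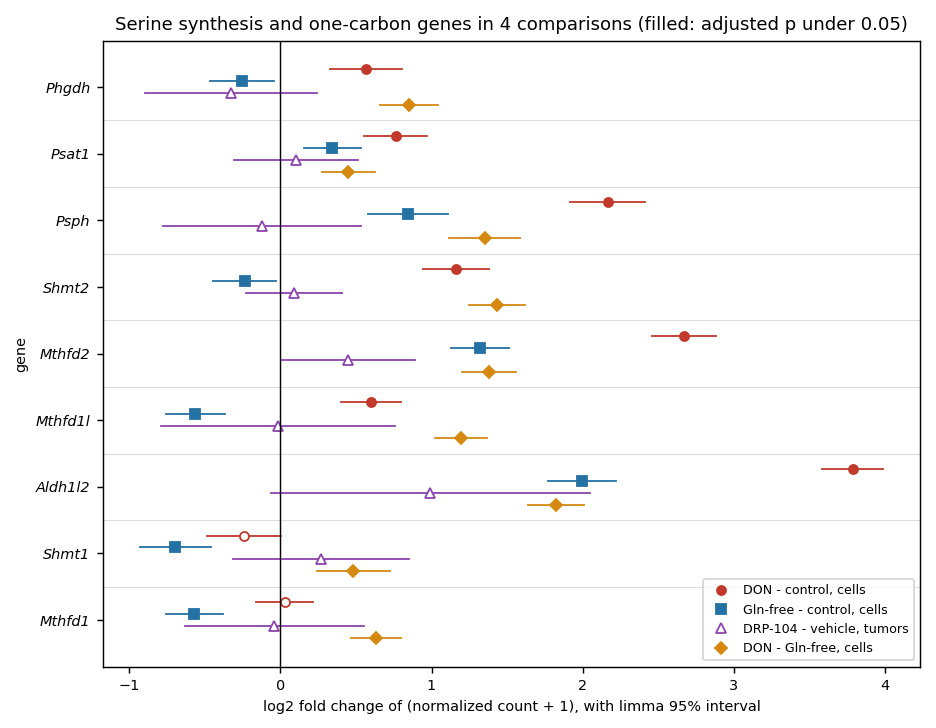
Log2 fold changes of the 9 genes (x axis, log2 of normalized count + 1) with limma 95% intervals in 4 comparisons. Filled symbols passed an adjusted p under 0.05, and open symbols did not. The DON minus Gln-free differences lie to the right of 0 for all 9 genes, from 0.45 to 1.82, while all 9 tumor symbols are open.

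Set against each other on the joint scale, DON and Gln-free cells differed in all 9 members, each higher after DON, where 31.0% of 13514 genes were called higher. The comparison uses 9 libraries that share 1 estimate of the spread. The log2 difference was 0.45 for Psat1 (95% interval 0.27 to 0.63, adjusted p = 0.000222, limma), 0.85 for Phgdh (0.66 to 1.04) and 1.35 for Psph (1.12 to 1.58). Among the mitochondrial enzymes it was 1.19 for Mthfd1l (1.02 to 1.37), 1.38 for Mthfd2 (adjusted p = 2.39e-09, limma), 1.43 for Shmt2 (1.25 to 1.62) and 1.82 for Aldh1l2 (1.64 to 2.01, adjusted p = 2.37e-10, limma). The 4 mitochondrial differences each exceeded 1, with that of Aldh1l2 the largest. The cytosolic enzymes also differed, by 0.48 for Shmt1 (0.24 to 0.72, adjusted p = 0.00155, limma) and by 0.63 for Mthfd1 (0.47 to 0.80). For Shmt1 and Mthfd1 the difference came with a fall without Gln and no called rise after DON. For Mthfd2 and Aldh1l2 it came with a rise in both, to 6.40 and 13.9 times the control mean after DON and 2.45 and 3.94 times without Gln. The 9 calls held in each of the 18 alternatives computed, with a highest adjusted p of 0.0116, for Shmt1 (limma).

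Per kilobase of gene length, the levels spanned a wide range. In reads per kilobase per M reads (n = 3, ± SD), Phgdh was the highest member in the controls at 504 ± 44.0, followed by Psat1 at 183 ± 8.64, Shmt2 at 91.6 ± 8.13, Mthfd1 at 53.1 ± 1.36, Mthfd2 at 39.6 ± 2.68, Mthfd1l at 30.7 ± 1.56, Psph at 18.1 ± 2.58, Shmt1 at 14.1 ± 0.252 and Aldh1l2 at 2.14 ± 0.0148. Within the controls no library of 1 gene overlapped its neighbour in that order. After DON Mthfd2 came next to Psat1 at 278 ± 17.0, Psph next to Shmt2 at 88.9 ± 1.38, and Shmt1 was last at 13.2 ± 1.77. Aldh1l2 was last in the other 4 groups, with 9.22 ± 0.756 without Gln, where its libraries overlapped those of Shmt1 at 9.42 ± 1.03, as those of Psph (34.8 ± 2.96) overlapped those of Mthfd1 (38.5 ± 2.31). In the vehicle tumors Phgdh led at 194 ± 32.8, Psat1 was at 35.4 ± 3.90 and Aldh1l2 at 0.404 ± 0.159, and the libraries of Psat1 and Shmt2, of Mthfd1l and Mthfd1 and of Shmt1 and Psph overlapped.

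The ratio of the mitochondrial to the cytosolic enzyme of the same reaction is independent of library size. Shmt2 was 6.97, 6.67 and 5.83 times Shmt1 per kilobase in the controls, 17.7, 14.6 and 19.5 times after DON and 8.02, 9.33 and 9.39 times without Gln. The 3 groups did not overlap, and the ratio was above the controls in the Gln-free cells although both genes were lower there. Mthfd2 was 0.745 ± 0.0350 times Mthfd1 in the controls (SD, n = 3), 4.66 ± 0.366 after DON and 2.76 ± 0.0813 without Gln. Mthfd1l was 0.577 ± 0.0152 times Mthfd1 in the controls and 0.858 ± 0.0394 after DON, whereas the Gln-free value of 0.581 ± 0.0412 overlapped the controls. Within the mitochondrial pathway, Aldh1l2 was 0.0542 ± 0.00371 times Mthfd2 in the controls, 0.118 ± 0.00313 after DON and 0.0868 ± 0.00718 without Gln. Psph was 0.0982 ± 0.00943 times Psat1 in the controls, 0.259 ± 0.0124 after DON and 0.139 ± 0.00869 without Gln.

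**Figure D3:**
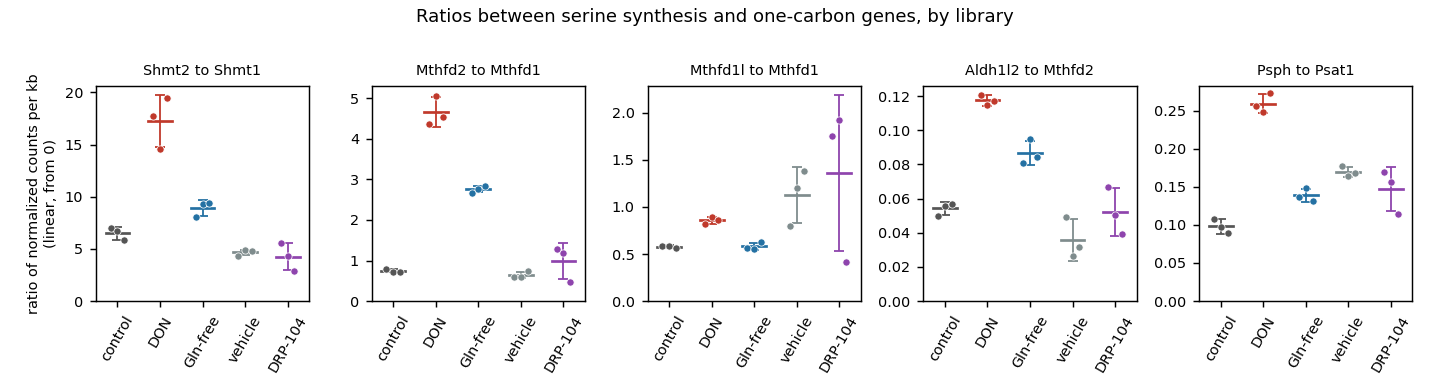
Ratios of normalized counts per kilobase (linear axes from 0) between pairs of the 9 genes in the 5 groups. Points are libraries, lines are means and bars are SD (n = 3). The Shmt2 to Shmt1 ratio is 14.6 to 19.5 in the DON libraries and 5.83 to 6.97 in the controls, while in the tumors its DRP-104 libraries span the vehicle libraries.

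In the tumors none of the 9 members passed the test, and 0.0% of 15454 genes did (limma, 775 genes at an unadjusted p under 0.05). In bulk tumors, fewer cells of a type and less RNA per cell cannot be told apart. The values of Mthfd2 did not overlap, with 718, 595 and 485 in DRP-104 tumors 1 to 3 (normalized counts) and 437, 399 and 466 in the vehicle tumors, as was the case for 10.6% of all genes. Its log2 fold change was 0.45 (95% interval 0.0098 to 0.89, adjusted p = 0.916, limma), and it was -0.11 in the authors' FPKM table (95% interval -0.60 to 0.37). Aldh1l2 had 139, 86.5 and 54.9 in the DRP-104 tumors and 62.6, 30.6 and 42.4 in the vehicle tumors, a log2 fold change of 0.99 (95% interval -0.064 to 2.05, adjusted p = 0.916, limma). In the FPKM table it was 0.18 (95% interval -0.23 to 0.60). The mean of Aldh1l2 over the tumors was 1.36 in FPKM and 69.3 in normalized counts. Adding 1 before the log therefore shrinks the FPKM change more, so the 2 estimates are not alike.

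Counts of Phgdh, normalized as before, were 6209, 6656 and 3820 with DRP-104 and 5391, 7244 and 7993 with vehicle, a log2 fold change of -0.33 (95% interval -0.89 to 0.24). In the FPKM table the sign was the opposite, with 0.57 (95% interval -0.044 to 1.18, adjusted p = 0.629, limma). Psat1 had 2240, 1819 and 1566 against 1511, 1994 and 1706, and Psph had 418, 311 and 197 against 294, 359 and 315. Shmt2 varied least of the members, with 1414, 1373 and 1394 against 1281, 1191 and 1471, a log2 fold change of 0.09 (95% interval -0.23 to 0.41). Mthfd1l had 1726, 1723 and 736 against 1029, 1437 and 1534. In these 5 genes the tumors of both groups overlapped.

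DRP-104 tumor 3, the one with the T cell markers, was the lowest of the 6 tumors for Phgdh, Psph and Mthfd1l, at 0.594, 0.540 and 0.427 of the mean of DRP-104 tumors 1 and 2. It was the highest for Mthfd1, with 885, 807 and 1619 under DRP-104 against 1163, 1078 and 1002, and for Shmt1, with 317, 393 and 592 against 364, 303 and 381. Its Mthfd1 was 1.91 times and its Shmt1 1.67 times the mean of the other DRP-104 tumors. Without this tumor the log2 fold change of Mthfd1l went from -0.02 to 0.39 and that of Psph from -0.12 to 0.17, and 0 members were called. The summed fibroblast markers were 18118 to 31482 in the DRP-104 tumors and 38338 to 81755 in the vehicle tumors, and the endothelial markers 1160 to 1562 and 1868 to 2112, without overlap. The summed acinar markers were 205 to 1093 and 166 to 3152, with 6 of 9 genes highest in vehicle tumor 3, and the islet markers 138 to 625 and 47.4 to 272. The summed macrophage markers were 2407 to 5895 and 3531 to 4406, and the epithelial markers 130197 to 173678 and 116747 to 161328. The part of these cell types in the values above was not tested.

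**Figure D4:**
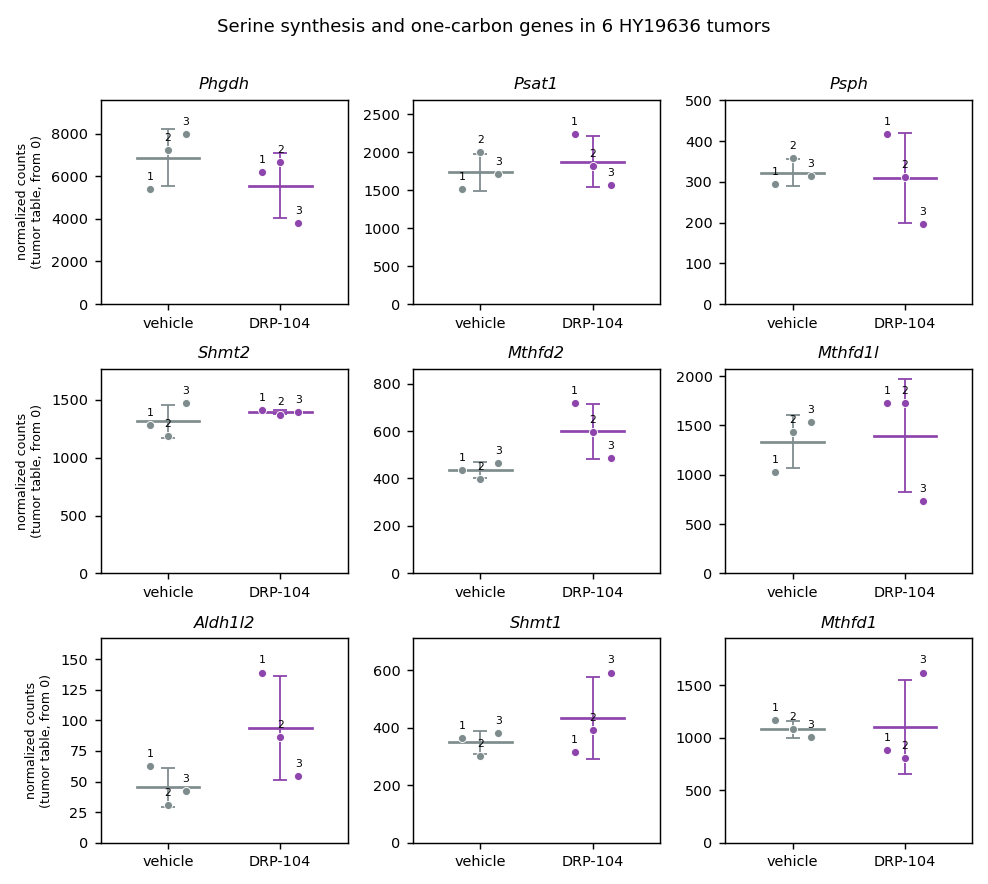
Normalized counts (linear axis from 0, tumor table) of the 9 genes in vehicle and DRP-104 tumors. Points are tumors with their numbers, lines are means and bars are SD (n = 3). The 3 DRP-104 tumors lie above the vehicle tumors for Mthfd2 only, at 485 to 718 against 399 to 466, and DRP-104 tumor 3 is the highest for Shmt1 and Mthfd1.

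The difference between the effect in tumors and that of DON in cells was tested as an interaction over 12 libraries. It compares a drug in mice with another in culture, so dose, time and cell mixture differ with the setting and cannot be told apart. Tumors and cells share 1 estimate of the spread in this fit, although for Aldh1l2 the residual SD was 0.59 in tumors and 0.073 in cells. The standard error of its difference, 0.42, was below that of its tumor effect alone, 0.46, so its interval may be too narrow. The tumor effect was called lower than the culture effect for 6 of the 9 members, where 14.0% of 15070 genes were called lower. The log2 difference was -2.79 for Aldh1l2 (95% interval -3.70 to -1.89), -2.29 for Psph (-2.95 to -1.62), -2.22 for Mthfd2 (-2.65 to -1.79) and -1.07 for Shmt2 (-1.43 to -0.72). Phgdh differed by -0.89 (adjusted p = 0.0281, limma) and Psat1 by -0.66 (adjusted p = 0.0233, limma). The FPKM table, which holds no cells, gave the tumor effect of Phgdh as 0.57, against 0.57 after DON in cells, and the difference could not be fitted across the tables. The call of Phgdh was lost in 6 of 12 fits without 1 library, those without vehicle tumor 2 or 3, DON library 1, 2 or 3, or control library 3 (log2 -0.91 to -0.77, adjusted p 0.0514 to 0.0739, limma). That of Psat1 was lost in 4 of 12, those without vehicle tumor 2, DON library 1 or 2, or control library 3 (log2 -0.65 to -0.55, adjusted p 0.0514 to 0.0603, limma). Mthfd1l, Shmt1 and Mthfd1 did not pass, with -0.62 (95% interval -1.41 to 0.18), 0.51 (-0.091 to 1.12) and -0.07 (-0.67 to 0.53). Without DRP-104 tumor 1, Shmt1 was called higher (0.72, adjusted p = 0.0415, limma).

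The other genes of the pathway moved in both directions in the cells. Of 11 tested genes of the cytosolic and nuclear folate cycle, 5 were higher and 4 lower after DON, and 3 higher and 5 lower without Gln. The shares over all genes were 33.3% higher and 34.7% lower after DON, and 34.5% and 34.9% without Gln. The median log2 fold change of the list was 0.32 and -0.17, against 0.02 and 0.0059 over all genes. Mtr, the methionine synthase, had log2 fold changes of 1.37 after DON and 1.08 without Gln, and Mtrr, its reductase, had 1.44 and 1.53. Tyms, the thymidylate synthase, fell by 1.45 after DON and by 1.00 without Gln.

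Aldh1l1, the cytosolic counterpart of Aldh1l2, was named after its values were seen. It had 825, 1081 and 784 normalized counts in the controls, 524, 254 and 514 after DON and 10.6, 27.2 and 22.3 without Gln on the joint scale. It fell by 5.48 on the log2 scale without Gln (adjusted p = 5.78e-09, limma) and by 1.13 after DON (adjusted p = 0.000595, limma), whereas Aldh1l2 rose in both. In the tumors its values were 950, 798 and 126 in DRP-104 tumors 1 to 3 and 500, 831 and 1161 in the vehicle tumors.

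Of 11 tested mitochondrial partners, 3 were higher and 4 lower after DON, and 3 higher and 5 lower without Gln, with medians of -0.05 and -0.08. Of all genes, 33.3% were higher and 34.7% lower after DON, and 34.5% higher and 34.9% lower without Gln. Gldc, the glycine decarboxylase, had 4879, 4638 and 3992 normalized counts in the controls and 1277, 1381 and 1102 after DON (DON table), a log2 fold change of -1.85, and fell by 0.35 without Gln. Amt, the aminomethyltransferase of the same glycine cleavage system, rose by 1.48 and 0.61. Sardh, the sarcosine dehydrogenase, fell by 2.39 and 2.80. Sfxn1, the mitochondrial serine carrier, fell by 0.62 after DON and had 0.04 without Gln (adjusted p = 0.693, limma). DON and Gln-free cells differed in Sfxn1 (log2 -0.63, adjusted p = 1.37e-06, limma).

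The next 2 lists stand against 33.3% of all genes higher and 34.7% lower after DON, and 34.5% and 34.9% without Gln. Of 7 tested genes of the methionine cycle and transsulfuration, 1 was higher and 3 lower after DON, and 1 higher and 5 lower without Gln. The one that rose in both was Cth, cystathionine gamma-lyase, with 948, 737 and 783 normalized counts in the controls and 6944, 6400 and 7001 after DON (DON table). Its log2 fold change was 3.05 after DON and 1.63 without Gln, while Cbs, the enzyme before it, fell by 1.42 and 1.52. Of 9 tested genes of serine use and uptake, 6 were higher and 1 lower after DON, and 3 higher and 2 lower without Gln. Slc1a4, a transporter of serine and other neutral amino acids, had 1663, 1928 and 1691 normalized counts in the controls and 4894, 5689 and 5410 after DON (DON table), and the log2 fold changes of the glycine transporter Slc6a9 were 1.69 after DON and 0.30 without Gln. Sptlc2, a subunit of the enzyme that joins serine to a fatty acid, fell by 0.68 and 0.57. In the tumors 0 genes of these lists passed the test.

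Of the 3 regulators tested, Atf4 rose from 9575, 8621 and 8342 normalized counts in the controls to 28393, 28024 and 27693 after DON (DON table), a log2 fold change of 1.67, and by 1.35 without Gln. On the joint scale Atf4 was 0.35 higher after DON than without Gln (adjusted p = 0.000886, limma). Myc was in the opposite order, with log2 fold changes of 1.03 after DON and 2.49 without Gln, and was lower after DON than without Gln (log2 difference -1.44, adjusted p = 5.13e-10, limma). Nfe2l2, which encodes NRF2, fell by 0.72 after DON and had -0.10 without Gln (adjusted p = 0.246, limma). In the tumors the log2 fold changes were -0.03 for Atf4 and 0.05 for Myc, with Atf4 at 4927, 4387 and 2701 in DRP-104 tumors 1 to 3 and 3624, 3957 and 4316 in the vehicle tumors. Of 12 proliferation markers, 11 were lower in each culture comparison, where 34.7% of all genes were lower after DON and 34.9% without Gln, with medians of -1.31 after DON and -1.40 without Gln, and 0 passed in the tumors. Several folate enzymes are known to follow the cell cycle, and the part of proliferation in the values of the members was not tested.

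The genes most like the serine synthesis and mitochondrial enzymes were sought by Pearson's r with the mean log2 value of the 7 over the 9 culture libraries. Iqcc (r = 0.998), Scpep1 (0.996), Lgals3 (0.996), Ddrgk1 (0.996) and Ctns (0.996) ranked first of 10424 genes with a mean of at least 100, of which a small share, 3.2%, had r above 0.95. Lgals3, a galectin, averaged 18082 normalized counts in the controls, 59134 after DON and 26758 without Gln. Ctns, the lysosomal cystine exporter, averaged 476, 1943 and 719. The libraries fall into 3 groups, so r mainly reflects the order and relative spacing of the group means. Of the 9 members, Psph had the highest r with this mean (0.992, itself included), and Mthfd1 (0.311) and Shmt1 (-0.047) the lowest.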

How the data were processed

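RNA-seq of 15 libraries in 5 groups of 3 was analyzed. Per the paper's methods, library preparation, HISAT2 alignment and DESeq2 testing were done by Novogene. The submitters' processing notes also name GRCm39, CASAVA and STAR 2.5, without roles, and the counting tool and use of strand are not given in the sources used here. The deposited signal in each comparison table is the gene count divided by 1 size factor per library, which the authors estimated within that table. The authors' FPKM table (normalized for gene length and depth) holds tumors only, in columns not matched to single tumors, and was used by group. The control columns of the culture tables carry names like those of the vehicle tumors and were assigned to the control group only. The authors' own fold changes and p-values in the tables were not used.

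Whole reads were recovered from the step between values of each library (tolerance 0.0051, at least 99.99% whole per library), with the same control reads for 55291 of 55291 genes in both culture tables. Even numbers made up 69.6% to 72.7% of recovered reads of 1 to 20 in cultures and 41.9% to 46.5% in tumors. Whether both mates of a pair were counted in the cultures is not given in the sources used here, so culture depths may count fragments more than once. Depth was 25.2 to 48.2 M reads in cultures and 16.3 to 20.7 M in tumors. limma 3.58.1 (R 4.3.3, lmFit and eBayes with trend) was fitted on log2(value + 1), which understates changes of low genes, over genes with a mean of at least 10, with Benjamini-Hochberg adjustment and calls at 0.05. DON and Gln-free cells were compared after the recovered reads of 9 libraries were scaled together by median of ratios. On recovered reads DESeq2 1.42.0 and the quasi-likelihood test of edgeR 4.0.16 were alternatives, as were pseudocounts of 0.5 and 10, no filter or a mean of 50, quantile normalization, the FPKM table, leaving out each library and a replicate block. Methods were tested on simulated data.

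The 9 members, the pathway and marker lists and the tests were chosen with earlier results of these data known. All 9 members were named throughout, up to 4 genes per pathway list by the largest called change after DON, and the 5 genes most correlated with the members. One gene that this rule names and part of the genotype are not reported here. Python 3.11, numpy 2.4.6, pandas 2.3.3 and matplotlib 3.10.9 were used.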

Additional observations from a re-analysis of the deposited data

Results flagged for a closer look

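For 6 of the 9 members the effect of DRP-104 in tumors differed from that of DON in cells by a test of the difference itself (limma interaction contrast, adjusted over 15070 genes), where 14.0% of these genes were called lower and 33.1% in either direction. The log2 difference, tumors minus cells, was -0.89 for Phgdh (adjusted p = 0.0281), -0.66 for Psat1 (adjusted p = 0.0233), -2.29 for Psph (adjusted p = 0.00011), -1.07 for Shmt2 (adjusted p = 0.000295), -2.22 for Mthfd2 (adjusted p = 5.22e-06) and -2.79 for Aldh1l2 (adjusted p = 0.00025), each by limma. Without 1 library in turn, the call of Phgdh was lost in 6 of 12 fits and that of Psat1 in 4 of 12, and in the FPKM table the tumor effect of Phgdh was 0.57 in place of -0.33. The fit shares 1 estimate of the spread over tumors and cells, so the adjusted p of Aldh1l2 may be too small. Setting, drug, dose, time and cell mixture differ together between the 2 arms and cannot be told apart.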

How the results depend on the processing

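Of 117 refits of single members in DON against control, 4 changed direction or side of the threshold, as did 13 of 117 in Gln-free against control, 0 of 162 in DON against Gln-free cells, 13 of 171 in the interaction and 19 of 135 in the tumors, where no member was called in any. After DON, Mthfd1 was called with quantile normalization (log2 0.22) and ranged from -0.033 to 0.065 without 1 library, and members called lower numbered 0 to 1 over the fits without 1 library. Without Gln, 3 members were lower instead of 5 with no filter on low values (adjusted p 0.0778 for Phgdh and 0.0667 for Shmt2, limma) and 3 to 5 without 1 library, and Shmt2 lost its call under quantile normalization (-0.20, adjusted p = 0.0589, limma). In the interaction, members called higher numbered 0 to 1 and lower 4 to 6 without 1 library, and Mthfd1 had 0.05 and 0.12 without DRP-104 replicates 1 and 2 (-0.38 to 0.12 over all such fits). DESeq2 called 60 genes in the tumors, 28 higher and 32 lower and none of the members, where limma and edgeR called 0.

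Tumor values of uncalled members changed sign. Mthfd1 and Mthfd1l were 0.034 and 0.071 with edgeR and 0.036 and 0.072 with DESeq2. In the FPKM table the log2 fold changes were 0.57 for Phgdh, -0.023 for Psat1, 0.032 for Psph, -0.10 for Shmt1, 0.083 for Mthfd1, -0.11 for Mthfd2 and 0.38 for Mthfd1l. Without 1 tumor they ranged from -0.032 to 0.23 for Psat1, -0.37 to 0.17 for Psph, -0.35 to 0.15 for Mthfd1 and -0.22 to 0.39 for Mthfd1l. The cause was not tested for any of these changes.

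No label pairs the samples by replicate number. Deviations from a mean of 3 libraries constrain each other, so their correlations cannot exclude a pairing. Same-numbered deviations correlated at -0.025, 0.0028 and 0.071 between DON and Gln-free cells and at -0.27, 0.038 and -0.36 between DRP-104 and vehicle tumors. With a replicate block 0 genes were called in the tumors, and 9 of 9 members and 9237 genes against 8549 in DON against Gln-free cells (6 libraries, added after the data were seen). No block was fitted for DON or Gln-free against control or for the interaction, because the numbers in the control column names are not tied to labelled control cultures. With 3 libraries a group, the median residual SD was 0.32 on the log2 scale in tumors against 0.16 in cultures. The smallest difference detectable in the tumors was not computed. For Phgdh the 95% interval in the tumors, -0.89 to 0.24, includes the -0.25 seen without Gln. The tumor intervals of Psat1, Mthfd1, Mthfd1l and Aldh1l2 also include their Gln-free changes, and those of Psph, Shmt1, Shmt2 and Mthfd2 do not.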
